A study of Mus musculus with 12 samples.

Results

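Wild-type mouse embryonic fibroblasts treated with rotenone were compared with the same kind of cell given vehicle, on 3 arrays each, which are 6 of the 12 arrays of the study. The arrays were chosen by their titles, and every probe set other than the array controls entered the comparison: 22626 probe sets, standing for 12393 named genes. Vehicle cells (wild type, no rotenone) and rotenone cells (wild type, 1 µM rotenone) were both exposed for 4 h at passage 4, as primary cultures in DMEM with 10% serum. The remaining 6 arrays hold fibroblasts of HtrA2 knockout mice, 3 with vehicle and 3 with rotenone. HtrA2 is a protease that resides between the mitochondrial membranes and guards protein quality there. RNA was labelled with biotin and read on Affymetrix arrays, whose values are transcript levels on a log2 scale, so that a difference of 1 is a doubling. Nothing in the labels says whether replicates came from separate embryos or cultures, so all p-values reflect only how far these samples differ from each other, and that spread may be technical.

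Rotenone is a plant-derived inhibitor of complex I, the entry point of electrons from NADH into the respiratory chain. It also binds tubulin and prevents microtubules from assembling. Cells answer mitochondrial inhibition in part through the integrated stress response, in which kinases phosphorylate the initiation factor eIF2 and the transcription factor ATF4 is translated more. Cells also destroy the messages of alpha and beta tubulin when unassembled tubulin accumulates, a feedback known as tubulin autoregulation. Lysosomes are watched by a separate system, in which folliculin and the Rag GTPases hold the factors TFEB and TFE3 in the cytoplasm.

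The labels disagree on the rotenone arrays: title, source and description give wild type, whereas the genotype entry gives knockout. The brighter of the Htra2 probe sets read 9.04, 8.83 and 9.32 on the vehicle arrays and 9.09, 9.02 and 9.14 on the rotenone arrays, while the 6 knockout arrays lay between 7.57 and 7.87. The rotenone arrays thus had the level of the wild-type vehicle arrays, and the groups of titles were kept. The dimmer Htra2 probe set did not separate the genotypes (7.98 in wild-type and 8.38 in knockout vehicle cells), and the labels do not say which exons the knockout lacks. All 16 fibroblast markers, such as the collagens and Pdgfra, lay above the 40th percentile of levels and 13 above the 75th. Above the 75th percentile were 0 of 10 leukocyte, 0 of 10 epithelial and 1 of 8 endothelial markers. The mean level of the leukocyte markers ran from 6.52 to 6.96 with vehicle and from 6.60 to 7.02 with rotenone, and that of the epithelial markers from 6.71 to 7.04 and from 6.79 to 7.33.

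Arrays of the same replicate number resembled each other, and replicate 3 stood apart from replicates 1 and 2 in every group. By the stated rule of the comparison, rotenone and vehicle arrays were compared within replicate numbers, as 3 pairs. Wild-type rotenone replicate 3 also stood apart for genes of the respiratory chain and of ribosomes, as described further on. Where leaving it out changed a list's count, that count is given. Except where another source is named, differences, standard errors (SE) and adjusted p-values come from a limma fit in which replicate numbers form blocks. The fit held the wild-type and the knockout arrays together, so each SE drew on the spread within both genotypes. An SE is therefore not the spread of the 3 wild-type pairs alone. A gene is said to rise, fall or change where its adjusted p was under 0.05.

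After 4 h of rotenone a small set of transcripts had changed. Txnip, tubulins and sterol genes were among the falls. The rises included stress-induced and lysosomal genes and the glucose transporter gene Slc2a1. Of 22626 probe sets, 142 were called (0.628%), 97 higher and 45 lower. Of 12393 genes, each read by its brightest probe set, 87 were called (0.702%), of which 61 rose (0.492%) and 26 fell (0.210%). The shares of rises and falls, 0.492% and 0.210%, stand as background to every list count below. The changes were mostly below 2-fold: 8 genes passed that size, and the smallest difference called was 0.44. All 87 genes moved the same way in each of the 3 pairs, against 29.1% of all probe sets. The arrays of the groups did not overlap for 65 of the 87 genes, against 7.34% of all probe sets. The 87 genes were called from these same pairs, so neither count is separate support for the calls.

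The calls rest on the pairing and on which replicates are in the fit. With no replicate block, 3 probe sets were called (0.0133%), and Txnip was the gene among the 87 that stayed called. Without replicate 1 the count of probe sets was 6, and 3 of the 87 genes stayed called (Trib3, Bhlhe40 and Tubb3). Without replicate 2 it was 0 in limma, with 2031 unadjusted p-values under 0.05, and none of the 87 stayed called. Without replicate 3 the count was 370, and 82 of the 87 genes stayed called. Leaving out wild-type vehicle replicate 1, 2 or 3 alone gave 14, 23 or 96 probe sets, and leaving out wild-type rotenone replicate 1, 2 or 3 alone gave 67, 35 or 180. Without rotenone replicate 3 the rises numbered 97, as with it, and the falls 83 in place of 45. Of 52 called genes named here, 8, 15 and 34 stayed called without vehicle replicate 1, 2 and 3 and 26, 17 and 45 without rotenone replicate 1, 2 and 3. Those lost without rotenone replicate 3 were Bnip3, Nr4a1, Rragc, Sqstm1, Tuba4a, Parp8 and Ctnnd1. In the gene lists described here, 0 members were called without replicate 2, and without replicate 1 those called were Trib3, Tubb3 and Bhlhe40. All 142 probe sets kept their sign under each of these omissions. Where a whole replicate was left out, this was fixed in advance for the 87 genes, whose 3 pairs all had the same sign.

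**Figure D1:**
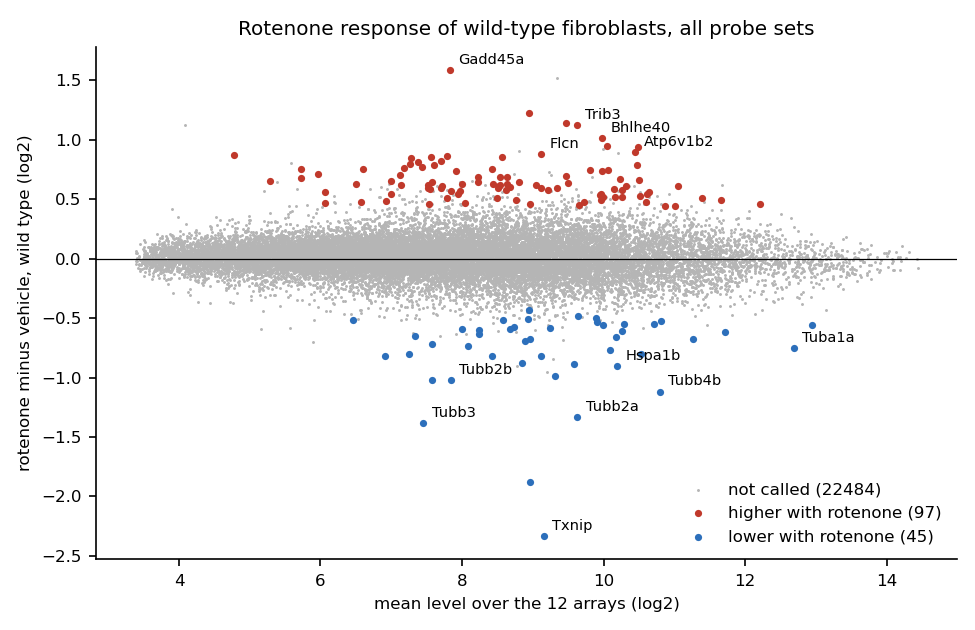
Difference between rotenone and vehicle in wild-type cells (y axis, log2) against the mean level over the 12 arrays (x axis, log2) for 22626 probe sets. Grey points are not called, red points are the 97 called higher and blue points the 45 called lower; Txnip is the lowest point and Gadd45a the highest called point.

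Txnip, an arrestin-like protein that inhibits thioredoxin and removes glucose transporters from the cell surface, showed the largest change. Its level was 10.66, 10.36 and 10.07 on vehicle replicates 1, 2 and 3 and 7.93, 7.54 and 8.62 on the rotenone replicates. Every rotenone array lay below every vehicle array, and the fall was smallest in pair 3. The difference was -2.33 (SE 0.24, 5.03-fold lower, adjusted p = 3.2e-04), and a second Txnip probe set fell by 1.88. Without the replicate block the adjusted p was 0.024.

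Arrdc4, the arrestin-domain gene most often induced together with Txnip by glucose, fell as well. It read 7.64, 7.60 and 7.84 with vehicle and 7.03, 6.85 and 7.25 with rotenone. The groups did not overlap, and the difference was -0.65 (SE 0.09, adjusted p = 0.0057; second probe set -0.82). Both genes are known targets of the Mondo factors, which sense glucose metabolites and bind DNA with the partner Mlx. Of the 8 measured genes of this list, 2 fell and 0 rose, and the median difference was -0.15 against 0.02 over all genes. The factor genes did not pass: the differences were -0.03 for Mlxip, which encodes MondoA, 0.11 for Mlx and 0.19 for Mlxipl. Among the 3 largest differences of the list, the remaining one was -0.29 for the beta-arrestin gene Arrb2 (adjusted p = 0.60).

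Mondo factors bind a pair of E-box-like sites set 5 bases apart. The promoter of Txnip is shown because it holds such a pair, CACGNG followed after 5 bases by CACGNG, in capitals with the bases between them; the search was for this pattern on either strand and was added after the values were seen. The stretch lies on the plus strand at chr3:96557836-96557924 of GRCm38.p6 (RefSeq).
Txnip: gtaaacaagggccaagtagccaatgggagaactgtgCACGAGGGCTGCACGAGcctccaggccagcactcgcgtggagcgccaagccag
RefSeq promoter windows, from 250 bases before to 50 after a transcript's start, were given for 9887 of the genes on the arrays, and 8 of them (0.0809%) held the pair. Another of the 8 was Fem1b, whose second probe set was 0.86 higher with rotenone, opposite to Txnip. Of the 6 genes of the arrestin and Mondo list with a window, Txnip alone held the pair, so Arrdc4 had no match.

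Tubulin messages fell in numbers. Of 11 alpha and beta tubulin genes measured, 7 fell and 0 rose. The median difference was -0.68 against 0.02 over all genes. In all 3 pairs 10 of the 11 were lower, against 11.3% of all genes. Tubb3, a beta tubulin best known from neurons, read 7.82, 7.63 and 8.78 with vehicle and 6.71, 6.51 and 6.86 with rotenone. The difference was -1.38 (SE 0.16, 2.61-fold lower, adjusted p = 0.0010), and the highest rotenone array lay well below the lowest vehicle array. Tubb2a went from 10.52, 10.09 and 10.02 to 9.11, 8.52 and 9.004, a fall of 1.33 (SE 0.16, adjusted p = 0.0023) with no overlap.

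The other beta tubulins that passed were Tubb4b (-1.12, adjusted p = 0.0053), Tubb2b (-1.02, adjusted p = 0.0070) and Tubb6 (-0.68, adjusted p = 0.011). The alpha tubulins were Tuba1a, from 12.96, 12.98 and 13.19 to 12.21, 11.79 and 12.89 (-0.75, adjusted p = 0.040), and Tuba4a (-0.55, adjusted p = 0.030). Tuba1a had its smallest fall, 0.30, in pair 3, and its groups still did not overlap. The 4 members that did not pass were Tubb5, the most abundant beta tubulin of many cells (-0.43, adjusted p = 0.11), Tuba8 (-0.39), Tubb4a (-0.06) and Tuba3b, the 1 member with a positive estimate (0.09, adjusted p = 0.85). Tubulin genes are close in sequence, so part of a probe set's signal can come from a relative. Further probe sets fell less for some genes: a second Tubb2a probe set was at -0.44 (adjusted p = 0.098), and 5 further Tubb4b probe sets lay between -0.37 and 0.15. With the mean of all probe sets per gene, 5 of the 11 fell and the median was -0.40.

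Other tubulins and tubulin-handling proteins had no calls. The 3 gamma, delta and epsilon tubulins measured, which nucleate microtubules or build centrioles, had differences from -0.12 (Tubg2) and -0.07 (Tubg1) to 0.01 (Tubd1), and 0 passed, with 0 unadjusted p-values under 0.05. Over all probe sets, 9.67% of unadjusted p-values were under 0.05. Of 19 genes of tubulin folding, which include the chaperonin subunits and the tubulin cofactors, 0 passed (1 at an unadjusted p under 0.05), and the median was 0.03. The largest were Pfdn1 (-0.29), Cct4 (0.25) and Tbca (-0.23). Ttc5, which recognises the start of nascent tubulin chains during autoregulation, was at 0.19 (adjusted p = 0.55). Of 20 microtubule-associated proteins, 0 passed (1 unadjusted), and the median was 0.04. Arhgef2 (0.22), Katna1 (0.21) and Dync1h1 (0.19) were the largest. The alpha and beta tubulin count was 6 without wild-type rotenone replicate 3, 9 without replicate 3 as a whole, 1 without replicate 1 and 0 without replicate 2, and the median lay between -0.74 and -0.53 in these 4 fits.

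**Figure D2:**
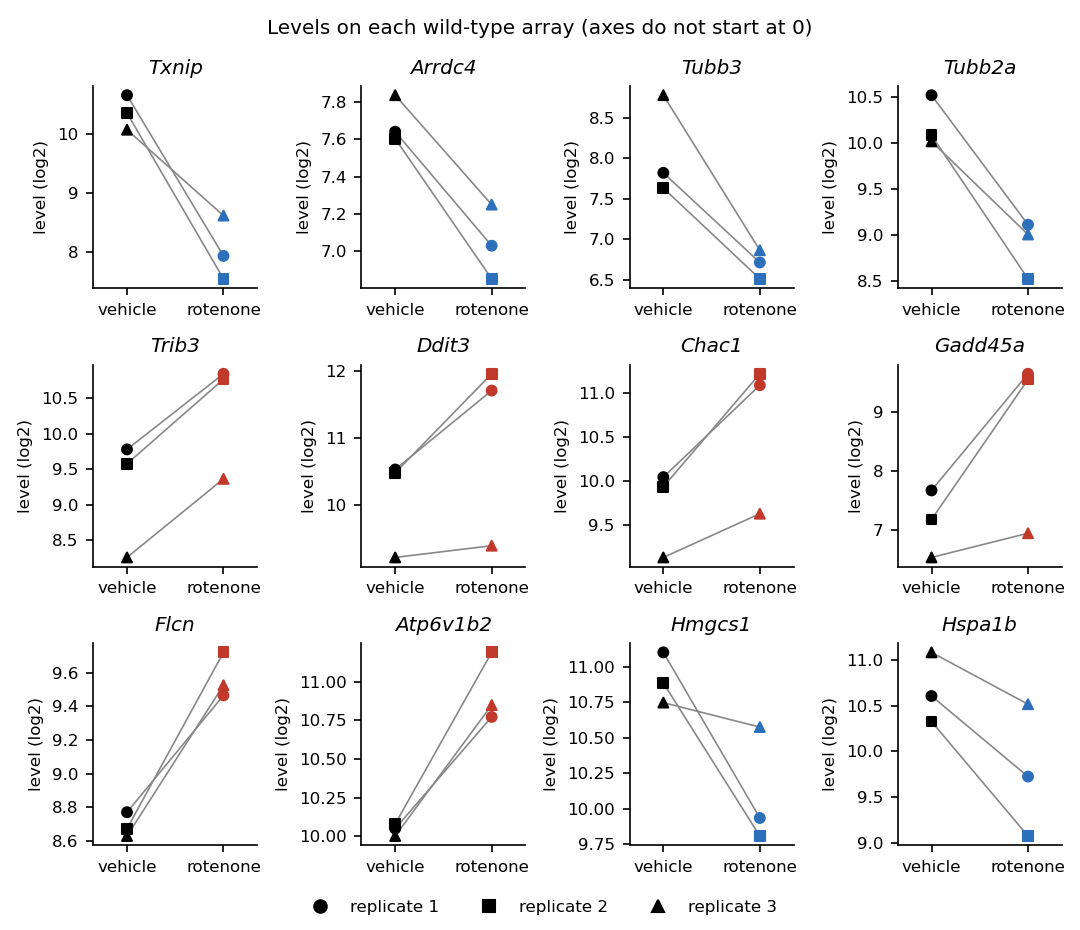
Level (y axis, log2, not starting at 0) of 12 genes on each wild-type array, vehicle on the left and rotenone on the right of each panel. Lines join arrays of the same replicate number (circle 1, square 2, triangle 3); all lines of a panel run the same way, and the line of replicate 3 is flattest for Ddit3, Gadd45a and Hmgcs1.

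Part of the integrated stress response rose, with the pseudokinase Trib3, the factor CHOP and the glutathione-degrading enzyme Chac1 in front. Of 26 measured members, 6 rose and 0 fell (0.492% of all genes rose). The median difference was 0.38 against 0.02 over all genes. In all 3 pairs 19 of the 26 were higher, against 2352 of all 12393 genes. Trib3, which binds ATF4 and the kinase AKT, read 9.78, 9.58 and 8.26 with vehicle and 10.85, 10.77 and 9.36 with rotenone. Replicate 3 was lower than the others in both groups, so the groups overlapped, but the pairs gave 1.07, 1.19 and 1.11. The difference was 1.12 (SE 0.09, 2.18-fold, adjusted p = 4.9e-05; a second probe set, 1.14).

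Chac1 went from 10.04, 9.93 and 9.13 to 11.09, 11.22 and 9.63 (0.94, SE 0.13, adjusted p = 0.0038). Ddit3, which encodes CHOP, went from 10.53, 10.48 and 9.22 to 11.70, 11.95 and 9.40 (0.94, SE 0.18, adjusted p = 0.031). Its rise in pair 3 was 0.17, against 1.17 and 1.47 in the other pairs. Atf3, a factor induced by ATF4, went from 7.39, 7.27 and 7.24 to 8.26, 8.64 and 7.56 (0.86, adjusted p = 0.028), with no overlap. Vldlr, the very-low-density lipoprotein receptor, rose by 0.68 (adjusted p = 0.0057) and Ddit4, an inhibitor of mTORC1, by 0.48 (adjusted p = 0.033).

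Atf4 itself was at 0.37 (adjusted p = 0.20), with 0.45, 0.61 and 0.06 in the 3 pairs. Ppp1r15a, the phosphatase subunit that reverses eIF2 phosphorylation, was at 0.89 (adjusted p = 0.090), and asparagine synthetase, Asns, at 0.29 (adjusted p = 0.21). Without replicate 3, 13 of the 26 rose, among them Atf4 (adjusted p = 0.020), and the median was 0.48. Without wild-type rotenone replicate 3 alone 11 rose, Atf4 among them (adjusted p = 0.030; median 0.44). Without replicate 1 1 rose, and without replicate 2 0 did.

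ATF4 binds C/EBP-ATF response elements, TGATGNAA on either strand. These promoter stretches are shown for the called members of the list that hold the element, written in capitals as it reads on the gene's strand (GRCm38.p6, RefSeq). They lie at chr1:191183400-191183479 (Atf3, minus strand), chr2:119351013-119351092 (Chac1, plus), chr2:152344028-152344057 (Trib3, minus, just after the transcript's start) and chr19:27216784-27216863 (Vldlr, plus).
Atf3: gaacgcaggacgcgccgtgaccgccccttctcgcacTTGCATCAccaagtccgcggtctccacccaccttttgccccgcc
Chac1: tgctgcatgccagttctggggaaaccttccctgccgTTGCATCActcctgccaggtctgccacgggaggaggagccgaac
Trib3: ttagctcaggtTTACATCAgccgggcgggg
Vldlr: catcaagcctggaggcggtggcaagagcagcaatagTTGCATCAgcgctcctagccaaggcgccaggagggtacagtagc
The element was in the windows of 10 of the 23 list genes with a window (43.5%), 6 of 51 called higher genes (11.8%), 1 of 18 called lower genes (Tubb3) and 3.13% of all 9887 genes. Atf3, Chac1, Trib3 and Vldlr count in both the list and the called higher genes, so these shares are not separate. The called members Ddit3 and Ddit4 were not among the matches. The element is known for this list, so its share there is not a result of these arrays. A match is a run of letters and not evidence of binding.

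Neighbouring programmes had fewer calls. Of 11 genes of serine, one-carbon and proline synthesis, Gpt2, an alanine aminotransferase of mitochondria, rose: 8.28, 8.24 and 7.51 with vehicle and 8.71, 8.94 and 8.30 with rotenone (0.64, adjusted p = 0.020). The next members were Mthfd2 (0.39, adjusted p = 0.066) and Got1 (0.30), and the list's median was 0.22. Of 18 cytosolic tRNA synthetases 0 passed by their brightest probe set. Their estimates were positive for 17, against 56.9% of all genes. Unadjusted p-values under 0.05 numbered 10, against 9.67% of all probe sets. The largest were Sars (0.34), Yars (0.31) and Lars (0.30), and the list's median was 0.22. A second Sars probe set rose (0.45, adjusted p = 0.046). Of 17 amino acid transporters 0 passed (5 unadjusted, median 0.08); Slc3a2, the heavy chain of several transporters, was at 0.40, Slc7a3 at 0.35 and Slc38a2 at 0.33. Slc1a4, a transporter of neutral amino acids, rose by a second probe set (0.59, adjusted p = 0.044).

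Gadd45a, a growth-arrest gene induced by DNA damage and by ATF4, had the largest rise by its estimate and the most uneven one. It read 7.67, 7.18 and 6.54 with vehicle and 9.65, 9.55 and 6.95 with rotenone. The pairs gave 1.97, 2.37 and 0.41, and rotenone replicate 3 lay below 2 of the vehicle arrays. The difference was 1.58 (SE 0.28, 3.00-fold, adjusted p = 0.021). Of 19 genes of the p53 targets and GADD45 family it was the 1 that passed, and the list's median was 0.05. Without replicate 3, 4 of the 19 rose: Gadd45a, Pmaip1, Plk2 and Plk3. Pmaip1, which encodes the death-promoting protein NOXA, was at 0.69 (adjusted p = 0.12) and the kinase gene Plk2 at 0.62 (adjusted p = 0.067).

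Immediate early genes, which respond to signals within minutes to hours, moved in both directions. Of 30 measured, 3 rose and 3 fell, and the median was 0.09. Without replicate 3, 7 rose and 3 fell (median 0.25); without wild-type rotenone replicate 3 alone, 2 rose and 3 fell (median 0.23). The rises were Gem, a small GTPase (0.87, adjusted p = 0.038), the factor Ets2 (0.73, adjusted p = 0.0097) and the nuclear receptor Nr4a1 (0.53, adjusted p = 0.031). Egr2, a growth factor-induced factor, was larger than Nr4a1 in estimate (0.71) and did not pass (adjusted p = 0.13). Gem was dim, from 4.75, 4.11 and 4.57 to 5.73, 5.19 and 5.12. The falls were Klf2, a factor of quiescence (-0.68, adjusted p = 0.0057), Rhob, an actin-regulating GTPase (-0.62, adjusted p = 0.013), and Jun, a subunit of AP-1 (-0.56, adjusted p = 0.017). Jun went from 10.38, 10.10 and 10.48 to 9.70, 9.73 and 9.86, with no overlap.

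Components of the lysosome and of the machinery that reads its state rose in small numbers. Flcn, which encodes folliculin, read 8.77, 8.67 and 8.63 with vehicle and 9.47, 9.72 and 9.53 with rotenone. All rotenone arrays lay above all vehicle arrays. The difference was 0.88 (SE 0.10, adjusted p = 0.0010), a second probe set rose by 1.22 (adjusted p = 9.9e-05), and the dimmest was at 0.20. Rragc, a Rag GTPase that works with folliculin at the lysosome, rose by 0.51 (adjusted p = 0.030).

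With Ddit4, these made 3 rises and 0 falls among 23 genes of folliculin, TFE factors and mTORC1 regulators. The list's median was 0.01, with 12 positive and 11 negative estimates. Without wild-type rotenone replicate 3, 2 rose, since Rragc did not pass, and without replicate 3 as a whole 4 rose. Tfeb, the master factor of lysosomal genes, was at -0.08 (adjusted p = 0.88).

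Of 15 subunits of the proton pump that acidifies lysosomes, 2 rose and 0 fell, with a median of 0.19; without replicate 3, 3 rose. Atp6v1b2 went from 10.05, 10.08 and 10.00 to 10.77, 11.19 and 10.85 (0.89, SE 0.11, adjusted p = 0.0023) and Atp6v1c1 from 10.15, 10.11 and 10.33 to 10.95, 10.75 and 10.89 (0.66, adjusted p = 0.015). Both are part of the cytoplasmic, ATP-splitting portion, and neither overlapped between groups. Both further Atp6v1c1 probe sets rose (0.52 and 0.59); of the further Atp6v1b2 probe sets 1 rose (0.78) and the dimmest was at -0.16. The next subunit was Atp6v1d (0.43, adjusted p = 0.22). Atp6ap2, an accessory subunit, rose by a second probe set (0.49, adjusted p = 0.044).

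Among 29 lysosomal hydrolases and membrane proteins, 28 estimates were positive and 19 were positive in all pairs, but the differences were small (median 0.17) and 2 rose. Of all 12393 genes, 7047 had positive estimates and 2352 were higher in all 3 pairs. Unadjusted p-values under 0.05 numbered 5 of the 29 (17.2%), against 9.67% of all probe sets. Neu1, a sialidase, went from 7.09, 6.71 and 7.29 to 7.83, 7.89 and 7.68 (0.77, adjusted p = 0.033), while 2 further Neu1 probe sets were at -0.06 and 0.13. Gla, alpha-galactosidase, rose by 0.61 (adjusted p = 0.043). The cholesterol exporter Npc1 came next (0.50, adjusted p = 0.23). Both calls were lost when arrays were centred on their medians or quantile-normalized. Without wild-type rotenone replicate 3 the list's median was 0.08 with 2 rises, and without replicate 3 as a whole it was 0.11 with 4.

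TFEB and its relatives bind the CLEAR element, whose core is TCACGTGA. The promoter of Gla is shown because it was the 1 called lysosomal gene whose window holds the core, here in 2 copies (capitals), on the minus strand at chrX:134601157-134601255 of GRCm38.p6 (RefSeq).
Gla: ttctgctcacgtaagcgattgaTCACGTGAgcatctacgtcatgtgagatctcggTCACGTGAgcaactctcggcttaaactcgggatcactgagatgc
The core was in the windows of 5 of 26 hydrolase-list genes (19.2%), 3 of 10 pump genes, 2 of 51 called higher genes (3.92%) and 1.76% of all genes.

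Of 27 autophagy genes, 2 rose and 0 fell, with a median of 0.08. Bnip3, a mitochondrial receptor for autophagy, read 9.38, 9.14 and 9.79 with vehicle and 9.99, 9.60 and 10.96 with rotenone. Its groups overlapped, and the difference was 0.75 (adjusted p = 0.038). Sqstm1, the cargo receptor p62, rose by 0.46 (adjusted p = 0.044). Neither passed without wild-type rotenone replicate 3, whereas without replicate 3 as a whole both passed and 4 of the 27 rose. Larger in estimate than Sqstm1 were Vps18 (0.56, adjusted p = 0.073) and Uvrag (0.49, adjusted p = 0.054), which did not pass; both serve membrane fusion with lysosomes.

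Glucose-handling and hypoxia genes rose in part. Of 19 genes of glucose transport and glycolysis 2 rose and 0 fell, with a median of 0.09; without replicate 3, 3 rose. Eno2, the neuronal enolase, went from 6.74, 6.82 and 6.77 to 7.58, 7.87 and 7.17 (0.76, SE 0.11, adjusted p = 0.0070), with no overlap. Slc2a1, the basal glucose transporter GLUT1, went from 10.15, 9.87 and 10.13 to 10.75, 10.33 and 10.81. Its groups did not overlap, the difference was 0.58 (adjusted p = 0.014), and 2 further probe sets rose by 0.54 and 0.59. Hexokinase, Hk2, was at 0.61 (adjusted p = 0.052).

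Of 19 hypoxia targets 3 rose, 0 fell, and the median was 0.16. Without wild-type rotenone replicate 3, 2 rose, and without replicate 3 as a whole 4 rose. Bhlhe40, a repressor that belongs to both the hypoxia and the clock lists, went from 9.82, 9.72 and 9.13 to 10.67, 10.90 and 10.14. All rotenone arrays lay above all vehicle arrays, and the difference was 1.01 (SE 0.10, adjusted p = 3.2e-04). Kdm3a, a histone demethylase, rose by 0.75 (adjusted p = 0.020), and Bnip3 was the remaining rise. Vegfa, the endothelial growth factor, was at 0.56 by its brightest probe set (adjusted p = 0.054) and rose by another (0.64, adjusted p = 0.034). The lists are not separate from the stress genes: Bnip3 stands in the hypoxia and the autophagy list, and Ddit4 in the folliculin and the stress list.

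All 15 circadian clock genes had positive estimates, with a median of 0.23, yet Bhlhe40 was the 1 that passed. Without replicate 3, 4 of the 15 rose: Bhlhe40, Noct, Cry1 and Dbp. Noct, a rhythmic phosphatase, was at 0.92 (adjusted p = 0.080) and Nr1d2, a nuclear receptor, at 0.49 (adjusted p = 0.13). Over all genes, 7047 of 12393 estimates were positive.

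Sterol synthesis genes had mostly negative estimates. Of 19 measured genes 2 fell, 0 rose and 18 had negative estimates, of which 11 were negative in all 3 pairs. Over all genes, 5346 of 12393 estimates were negative, and 11.3% of genes were lower in all 3 pairs. The list's median was -0.17. Hmgcs1, which makes HMG-CoA for the mevalonate pathway, read 11.10, 10.89 and 10.75 with vehicle and 9.93, 9.81 and 10.57 with rotenone. The pairs gave -1.17, -1.08 and -0.17, and the groups did not overlap. The difference was -0.81 (SE 0.17, adjusted p = 0.046), 3 further probe sets lay between -0.90 and -0.84, and the call was lost after quantile normalization or median centring (adjusted p = 0.059 in both).

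Stard4, a carrier of cholesterol between membranes, went from 8.28, 8.22 and 8.70 to 7.46, 7.14 and 8.38 (-0.74, adjusted p = 0.018). Rotenone replicate 3 lay above 2 of the vehicle arrays. Idi1, isopentenyl diphosphate isomerase, came next (-0.60, adjusted p = 0.14). Without replicate 3, and also without wild-type rotenone replicate 3 alone, 4 of the 19 fell. Of 12 genes of fatty acid synthesis 1 fell, the elongase Elovl6 (-0.60, adjusted p = 0.014), with a median of -0.07; Fasn, fatty acid synthase, was at -0.23 and Acly at -0.15. The sterol factor gene Srebf2 was at -0.22 and Srebf1 at -0.05; neither passed.

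SREBP factors bind sterol regulatory elements, searched as TCACNCCAC on either strand. The Hmgcs1 promoter is shown because it was the 1 of 15 sterol genes with a window that held the element (capitals), against 1.5% of all genes; it lies on the plus strand at chr13:119690178-119690258 of GRCm38.p6 (RefSeq).
Hmgcs1: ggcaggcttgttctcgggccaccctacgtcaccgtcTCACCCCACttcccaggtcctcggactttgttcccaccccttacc
Windows without these letters say nothing on whether the factor binds.

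Among 18 heat shock chaperones 2 fell, 0 rose, and the median was -0.10. Hspa1b, an inducible HSP70, went from 10.61, 10.33 and 11.09 to 9.72, 9.07 and 10.52 (-0.90, SE 0.15, adjusted p = 0.014). Each pair fell, by 0.88, 1.26 and 0.57, while the groups overlapped. Hspa8, the constitutive HSP70, went from 13.20, 13.10 and 13.22 to 12.63, 12.28 and 12.95 (-0.56, adjusted p = 0.046), with no overlap. Bag3, a partner of HSP70, was at -0.44 (adjusted p = 0.056) and Hspa1a, a near-identical neighbour of Hspa1b, at -0.37. Signal of Hspa1a and Hspa1b may be shared between their probe sets. Hspa4l was at 0.38 (adjusted p = 0.095), so estimates of the list ran both ways.

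Heat shock factors bind inverted repeats of GAA, searched as GAANNTTC, which reads the same on both strands. The promoter of Hspa1b is shown because it was the 1 called gene of the list with the element (capitals), on the minus strand at chr17:34959299-34959378 of GRCm38.p6 (RefSeq).
Hspa1b: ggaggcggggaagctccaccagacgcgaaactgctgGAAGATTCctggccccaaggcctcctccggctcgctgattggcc
The element was in the windows of 9 of 15 heat shock genes and 7.56% of all genes, and of 2 of 18 called lower genes (Hspa1b and Jun).

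Of 25 chaperones and degradation genes of the endoplasmic reticulum, 1 fell and 0 rose, with a median of 0.01. Syvn1, the ubiquitin ligase HRD1, fell by 0.50 (adjusted p = 0.043), from 10.08, 10.06 and 10.14 to 9.47, 9.52 and 9.78. Herpud1 was at 0.25, Sdf2l1 at -0.25 and Hspa5, the chaperone BiP, at 0.13; none of the 3 passed. Of 23 NRF2 targets and antioxidant enzymes, Hmox1, heme oxygenase, rose (0.56, SE 0.09, adjusted p = 0.012). It read 10.87, 10.72 and 9.81 with vehicle and 11.38, 11.32 and 10.39 with rotenone, and the pairs gave 0.51, 0.60 and 0.58. The list's median was 0.01, and 3 of the 23 rose without replicate 3 or without wild-type rotenone replicate 3 alone. In the full fit Mt1 (0.44) and Nfe2l2 (0.33), which encodes NRF2 itself, did not pass.

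**Figure D3:**
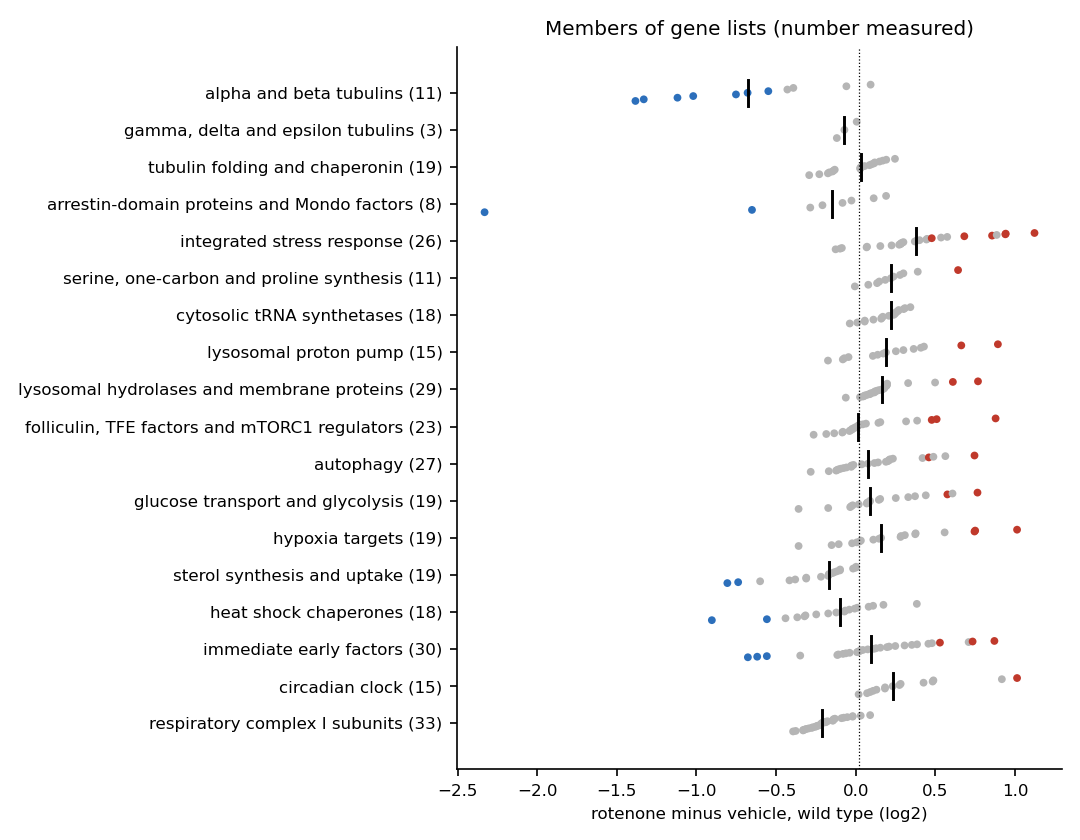
Difference between rotenone and vehicle in wild-type cells (x axis, log2) of every measured member of 18 gene lists, with the number measured in brackets. Red and blue points rose and fell, grey points did not pass, black bars are list medians and the dotted line is the median of all genes (0.02); alpha and beta tubulins have the lowest median and the integrated stress response the highest.

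Of the 87 called genes, 46 stood in a list and 41 in none. Further lists had 1 call each. The genes measured were 14 of mannose activation and dolichol glycans, 20 of the actin cytoskeleton, 6 ARF GTPases and 14 interferon-stimulated genes. Over all genes, 0.492% rose and 0.210% fell. Gmppb makes GDP-mannose for glycans and went from 9.74, 9.56 and 9.22 to 8.72, 8.68 and 8.67 (-0.82, adjusted p = 0.0051). Synpo, an actin-binding protein, fell by 0.82 (adjusted p = 0.019), Arf2, a small GTPase of the Golgi, by 0.63 (adjusted p = 0.017), and Ifit2, an interferon-stimulated gene, rose by 0.71 (adjusted p = 0.020). The next largest members of those lists did not pass: Alg2 (-0.23) and Dpm2 (-0.19), Myh9 (-0.38) and Ankrd1 (0.35), Arf5 (-0.27) and Arf3 (-0.18), and Stat2 (0.25) and Ifi35 (-0.22).

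Genes in no list that belong to the largest changes were Gdap10 (0.76, adjusted p = 0.030), Thbd, which encodes thrombomodulin (0.75, adjusted p = 0.016), and Tmem119 (-0.66, adjusted p = 0.021). Thbd went from 9.94, 9.62 and 9.88 to 10.42, 10.68 and 10.59, and Tmem119 from 10.61, 10.58 and 10.17 to 9.95, 9.69 and 9.73. Neither gene's groups overlapped. A further 25 genes were called through a probe set other than their brightest. The largest of these, named after their values were seen, were Fem1b (0.86, adjusted p = 0.0048) and Ogt, the enzyme that attaches GlcNAc to proteins (0.85, adjusted p = 0.0026), among the rises and Pcdh7, a protocadherin (-0.80, adjusted p = 0.0097), among the falls. The brightest probe sets of Ogt and Pcdh7 were at 0.16 and 0.29. For the 87 genes, 75 further probe sets were measured, of which 67 had the same sign and 22 were called, all 22 with the same sign.

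Respiratory chain genes, whose products include the target of rotenone, did not pass in any case: 0 of 33 complex I subunits (7 at an unadjusted p under 0.05) and 0 of 38 subunits of complexes II to V (6 unadjusted). Complex I subunits had a median of -0.21, with 31 of 33 negative (5346 of 12393 over all genes), and pair 3 was the lowest. The medians in pairs 1, 2 and 3 were -0.07, 0.03 and -0.54. Their mean level was 10.99, 10.80 and 11.03 with vehicle and 10.93, 10.83 and 10.50 with rotenone, so that rotenone replicate 3 lay below every other wild-type array. The 3 largest differences, Ndufa5 (-0.39), Ndufa3 (-0.38) and Ndufb3 (-0.33), were -0.94, -0.92 and -0.79 in pair 3 and no lower than -0.19 in the other pairs.

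The same array was lowest for related lists. Medians in pairs 1, 2 and 3 were -0.06, 0.02 and -0.39 for complexes II to V, -0.04, 0.05 and -0.47 for 74 mitochondrial ribosomal proteins and 0.02, 0.01 and -0.25 for 44 cytosolic ribosomal proteins. In the knockout pairs numbered 3 these medians were -0.04, -0.12 and 0.02, and that of complex I was -0.04. Collagens went the other way in wild-type pair 3, with medians of -0.14, 0.00 and 0.33. Without wild-type rotenone replicate 3 the medians were -0.04 for complex I, -0.0040 for complexes II to V, 0.02 for both ribosomal lists and -0.08 for collagens. Whether an RNA or array property of that library has a part in these values was not tested.

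**Figure D4:**
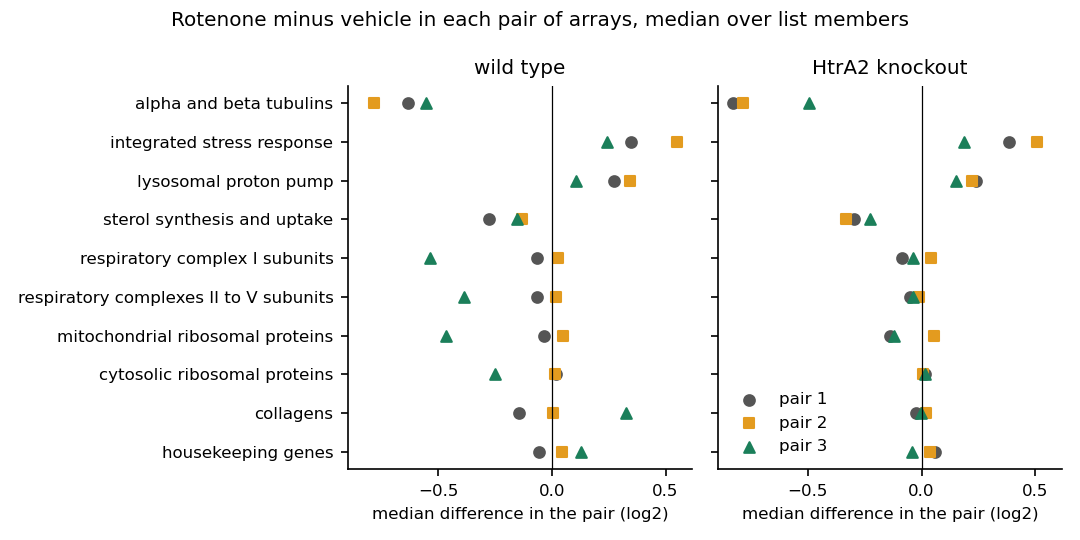
Median difference between rotenone and vehicle (x axis, log2) over the members of 10 lists (y axis) in each same-numbered pair of arrays, wild type on the left and knockout on the right. Wild-type pair 3 (green triangles) lies near -0.5 for complex I and for mitochondrial ribosomal proteins, where the other 5 pairs lie between -0.14 and 0.05; the tubulin medians are below 0 and the stress medians above 0 in all 6 pairs.

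No member passed in limma in several other lists. Unadjusted p-values under 0.05 numbered 6 of 33 genes of G2 and M phase (median -0.14), 4 of 25 of G1 and S phase (median -0.05), 4 of 14 of the BCL2 family, 2 of 20 mitochondrial proteases and chaperones, 2 of 42 proteasome subunits, 1 of 16 collagens and 6 of 19 chemokine and cytokine genes, against 9.67% of all probe sets. Without replicate 3, calls appeared in some of these lists: 2 higher and 1 lower among chemokine and cytokine genes (Ch25h and Lif, and Cxcl5), 2 lower in G2 and M phase (Plk1 and Kif2c), 1 higher in G1 and S phase (Cdt1) and 1 higher in the BCL2 family (Pmaip1). Without wild-type rotenone replicate 3 alone they were 2 higher chemokine and cytokine genes and 1 higher gene of G1 and S phase. Of the 16 fibroblast markers, 0 passed in the full fit (3 unadjusted) and 1 fell in each of these omissions; without replicate 3 it was Pdgfra, a growth factor receptor, with -0.83, -0.86 and 0.33 in the 3 pairs. The largest were Plk1 (-0.48), Kif2c (-0.41) and Cenpe (-0.36) among mitotic genes. Ch25h, which makes 25-hydroxycholesterol and was counted with the cytokine genes, was at 1.52 (SE 0.35, adjusted p = 0.077), with 1.64, 2.68 and 0.22 in the 3 pairs. Lif, a cytokine, was at 0.91 (adjusted p = 0.105), and Cxcl5, a chemokine, at -0.36. The 9 housekeeping genes lay between -0.09 and 0.10.

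The pairs were not alike in how much they moved. Medians over the 61 rising genes were 0.56, 0.70 and 0.50 in pairs 1, 2 and 3, and over the 26 falling genes -0.78, -0.77 and -0.61. The smallest difference of a gene lay in pair 1 for 27 rises and 2 falls, in pair 2 for 7 and 9, and in pair 3 for 27 and 15. Across all probe sets the differences of pairs correlated weakly as a description (r of 0.22, 0.19 and 0.15), with no array shared between pairs.

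Nearly all genes called in wild type moved the same way with rotenone in HtrA2 knockout fibroblasts, which share no array with the wild-type comparison. Both comparisons came from the same fit, with shared replicate blocks and a shared estimate of spread, so their calls are not independent. There 68 probe sets were called (0.301%), 26 higher and 42 lower. Of the 142 wild-type calls, 50 were also called in knockout cells, which are 35.2% of the wild-type and 73.5% of the knockout calls, and 141 had the same sign, against 65.8% of all probe sets. Of the 87 genes, 34 were called in knockout cells and 86 had the same sign.

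The 8 called genes with the largest differences in wild type were led by Txnip, at -2.33 in wild type and -2.50 in knockout. The next were Gadd45a (1.58 and 1.53), Tubb3 (-1.38 and -1.36), Tubb2a (-1.33 and -1.23) and Trib3 (1.12 and 1.05). Tubb4b (-1.12 and -1.31), Tubb2b (-1.02 and -0.97) and Bhlhe40 (1.01 and 0.74) followed. Further rises were at 0.86 and 0.51 (Atf3), 0.89 and 0.66 (Atp6v1b2) and 0.88 and 0.75 (Flcn). List medians were -0.68 and -0.71 for tubulins, 0.38 and 0.39 for the integrated stress response, -0.17 and -0.25 for sterol synthesis, 0.22 and 0.08 for tRNA synthetases, and 0.23 and 0.12 for clock genes. For 72 of the 87 genes the wild-type estimate was further from 0; these genes were chosen by their wild-type calls. Of 41 genes called in knockout cells, 21 were further from 0 there.

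The difference between genotypes was itself tested. It passed for 0 of 22626 probe sets in limma, with 295 unadjusted p-values under 0.05. With no replicate block the counts were 0 and 82. Chance alone would give 1131.3 unadjusted p-values under 0.05 in either fit, so both fits had fewer than that. Over the 87 genes the 95% interval of that difference, unadjusted for the number of tests, reached a median of 0.34 to either side. Larger differences could also go unseen after adjustment, such as -0.56 for Parp8 and 0.56 for Ctnnd1 (knockout minus wild type). Among the 87 genes, the largest differences between genotypes were led by Parp8, a mono-ADP-ribosyltransferase (0.73 in wild type and 0.17 in knockout). Ctnnd1, which encodes p120 catenin (-0.53 and 0.02), Gdap10 (0.76 and 0.28), Tiparp, another ADP-ribosyltransferase (0.69 and 0.30), and Ifit2 (0.71 and 0.34) came next. None of the 5 passed for the difference, with an adjusted p of 1.0 each.

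**Figure D5:**
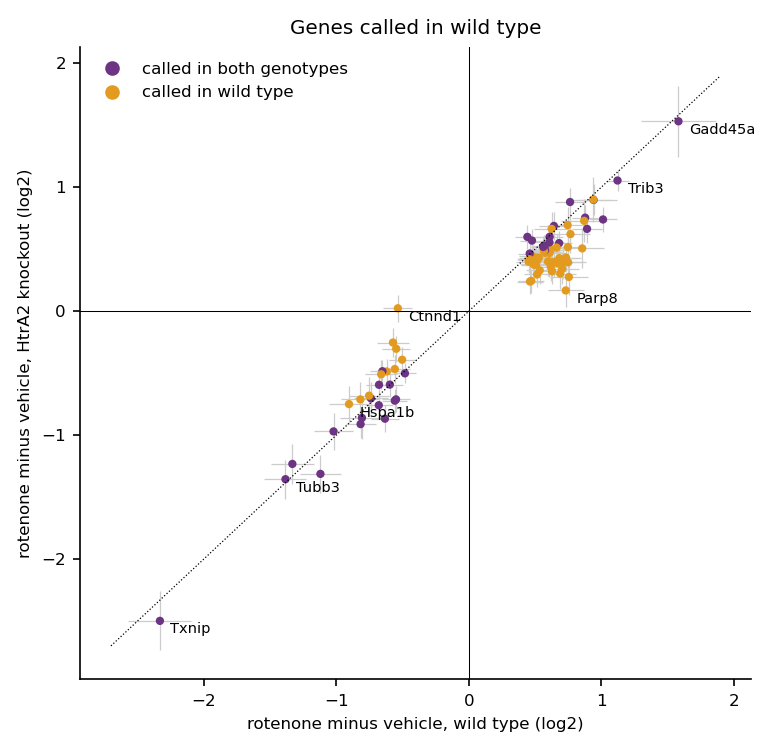
Difference between rotenone and vehicle of the 87 genes called in wild type, in wild-type cells (x axis, log2) and in HtrA2 knockout cells (y axis, log2), with SE bars. Purple points are the 34 genes called in both genotypes, orange points the others, and the dotted line marks equal differences; all points but Ctnnd1 have the same sign on both axes.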

How the data were processed

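The deposited log2 values of 12 arrays are RMA values, per the submitters' processing notes. The RMA software's version is not given in the sources. RMA corrects background and brings array distributions together, so it can compress differences near background and hide a change shared by most transcripts. Values ran from 3.19 to 14.59 and array medians from 7.53 to 7.58. Scanner intensities were not used here, so the number of arrays limits the precision.

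Of 22690 probe sets 64 array controls were left out. The platform annotation gave 1 symbol to 20380 of the remainder, several to 691 and none to 1555. Where a gene had several probe sets, the brightest on average over the 12 arrays stood for it. Wild-type arrays were grouped by title.

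A single model of 4 group means and replicate blocks was fitted over 12 arrays (limma 3.58.1, R 4.3.3, lmFit then eBayes), with two-sided p-values and Benjamini-Hochberg adjustment over 22626 probe sets (threshold 0.05). The labels number replicates but do not say what a number marks. Pairing by replicate number was part of the stated comparison. In the values, deviations from group means correlated in all 18 same-numbered pairs (r from 0.289 to 0.829, and 0.481, 0.464 and 0.656 within wild type). Replicate 3 stood apart on the first principal component (44.7% of variance). The fit was tested on simulated data first.

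The comparison and the 50 gene lists (1074 entries) were chosen with earlier results of these data known. Lists are described by counts and medians, with no set test. The genes named were the 15 largest rises and 15 largest falls with the same sign in all pairs, every called list member, the 3 largest differences of each list described beyond its count, the genes Htra2, Txnip, Arrdc4, Atf4, Ddit3, Trib3, Flcn and Tfeb, and the 5 called genes that differed most from knockout. Others are named for their role or, where stated, after their values were seen. Promoter sequences are RefSeq windows of GRCm38.p6; the genome build used by the array's own annotation is not known here.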

Additional observations from a re-analysis of the deposited data

How the results depend on the processing

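Wild-type calls numbered 142 probe sets in the paired fit, 3 with no replicate block and 313 with the replicate block nested in genotype. They ranged from 0 to 370 when a replicate or a wild-type array was left out. The knockout count of 68 became 2 with no replicate block, 166 with the nested block, and ranged from 0 to 343 when a replicate or an array was left out. Intensity trend, quantile normalization, median centring, dim probe sets left out and wild-type arrays alone gave 139, 115, 105, 130 and 169. The genotype difference stayed at 0 calls in each setting run. Of the 52 called genes named, 1 kept its call with no replicate block, 41 after quantile normalization, 44 after centring and 45 with the mean of all probe sets per gene, where Neu1 (0.28), Tubb4b (-0.31) and Synpo (-0.38) were among those lost; none changed sign. Estimates near 0 did: Htra2 ranged from -0.077 to 0.12 when a replicate or an array was left out (-0.063 without replicate 2, -0.077 without wild-type vehicle replicate 2 and -0.020 without wild-type rotenone replicate 1), and Tfeb from -0.15 to 0.015 (without replicate 3). The cause of these changes was not tested. Fits that leave out replicates have fewer residual degrees of freedom. With 3 pairs, changes under about 0.44 were not called.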
